A study of Mus musculus with 48 samples.

Results

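Lrp2 and Mep1b encode 2 proteins of the apical surface of the kidney proximal tubule, and their levels are described here in every kidney of a study of vancomycin, a glycopeptide antibiotic that can injure the kidney. The 2 genes were chosen by name, out of 7859 genes that could be named in the array table and 5748 whose signal was high enough to test, and both were among the tested genes. Lrp2 encodes megalin, a very large receptor of the LDL receptor family. Together with cubilin and its partner amnionless, megalin sits in the apical membrane of proximal tubule cells, binds filtered proteins, vitamin carriers and some drugs, and brings them into the cell in clathrin-coated vesicles. Mep1b encodes the beta subunit of meprin, a zinc metalloprotease of the brush border that is abundant in the mouse kidney and cleaves peptides and matrix proteins. One gene thus stands for apical uptake and the other for apical proteolysis.

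The animals were female BALB/c mice that received an injection on each of 7 days and were killed on day 8. The intraperitoneal (ip) groups received saline or 50, 200 or 400 mg/kg vancomycin, the intravenous (iv) groups received saline or the same doses, and each of the 8 groups held 6 mice. The 48 kidneys were each hybridised to 1 Affymetrix array, and a level below is a log2 intensity, on which a difference of 1 is a doubling. The labels give each mouse a number of its own and name no batch, and the ip and iv mice are different animals.

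The values in the deposited table do not follow the probe set identifiers printed beside them. Names were therefore given by position in 3 stretches of the table, where pairs of probe sets for 1 gene had levels that correlated at 0.535, 0.548 and 0.611 across pairs, against 0.132, 0.206 and 0.167 with the identifiers as printed. Lrp2 is the value assigned to probe set 1427133_s_at and Mep1b the value assigned to 1418215_at, in different stretches, and everything said of them rests on that assignment. The other 2 probe sets listed for Lrp2 lie outside the stretches and were not used here. Array medians lay between 3.47 and 3.68 in ip arrays and between 3.34 and 3.55 in iv arrays, and the whole table has a median of 3.47. The 90th percentile lay between 9.07 and 9.23 in ip arrays and between 8.28 and 8.75 in iv arrays, without overlap. In 4 iv arrays, of mouse 1 given saline, mouse 9 at 50, mouse 27 at 200 and mouse 44 at 400 mg/kg, the median lay well above that of the other 5 of the group, and each of these mice had the lowest Lrp2 value of its group. The arrays of mice 1 and 9 also had the lowest 90th percentiles of all arrays, 8.29 and 8.28.

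At 400 mg/kg Lrp2 was lower by both routes. It had a lowest, median and highest level of 9.96, 10.55 and 11.7 in ip 400 mice, against 13.32, 13.39 and 13.54 in ip saline mice. Every one of the 6 ip 400 mice lay below every ip saline mouse, and the gap between the groups was 1.62. By the iv route the levels were 10.19, 10.72 and 12.01 in iv 400 mice, against 12.15, 12.9 and 13.02 in iv saline mice. These groups did not overlap either, but only 0.14 separated the highest iv 400 mouse, mouse 45, from the lowest iv saline mouse, mouse 1. How many of all genes separated in this way was not counted. Separation, here and below, is thus not shown to be particular to the genes named.

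In means, Lrp2 was at 10.74 ± 0.74 in ip 400 and 13.4 ± 0.08 in ip saline mice (SD, n = 6 each), a log2 fold change of -2.66 ± 0.24 (SE), or 6.31-fold lower (limma across all genes, adjusted p = 4.4e-13). It was at 10.82 ± 0.69 in iv 400 and 12.77 ± 0.33 in iv saline mice (SD, n = 6 each), a log2 fold change of -1.95 ± 0.24, or 3.86-fold lower (limma, adjusted p = 4.2e-09). Of all genes tested, 61.3% passed the same test at ip 400 and 49.7% at iv 400, and 25.1% and 19% passed it as lower. Passing the test is thus common at this dose. Ranked by fold change from the most negative, Lrp2 was number 62 of 5748 at ip 400 and number 59 at iv 400. Without the 4 arrays with a high median the value at iv 400 was again -1.95.

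Mep1b was lower at 400 mg/kg as well, with more negative fold changes than Lrp2. Its lowest, median and highest levels were 5.82, 6.62 and 8.08 in ip 400 mice, against 10.81, 11.2 and 11.65 in ip saline mice. All 6 ip 400 mice lay below all ip saline mice, by at least 2.73. In iv 400 mice the levels were 4.48, 7.15 and 10.02, against 9.91, 10.54 and 10.81 in iv saline mice. Here 5 of the 6 treated mice lay below the lowest saline mouse, and mouse 45, at 10.02, lay within the saline range.

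The mean of Mep1b was 6.83 ± 0.82 in ip 400 and 11.25 ± 0.34 in ip saline mice (SD, n = 6 each), a log2 fold change of -4.42 ± 0.45 (SE, limma adjusted p = 9.9e-12), which left 4.67% of the saline level. It was 7.11 ± 1.99 in iv 400 and 10.48 ± 0.33 in iv saline mice (SD, n = 6 each), a log2 fold change of -3.37 ± 0.45 (limma adjusted p = 2.1e-08), which left 9.65%. The fit pooled the spread of all groups, although the SD of Mep1b ran from 0.13 at ip 200 to 1.99 at iv 400. Fitted with only the groups compared, the SE at iv 400 was 0.7 (limma adjusted p = 0.0015). Mep1b ranked number 9 of 5748 genes by fold change in both comparisons. The spread of Mep1b over the 6 iv 400 mice was the widest of any group of either gene, a 46.5-fold range between mouse 48 and mouse 45, and a 4.8-fold range was seen in ip 400 mice. Without the 4 arrays with a high median the log2 fold change at iv 400 was -3.21.

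**Figure D1:**
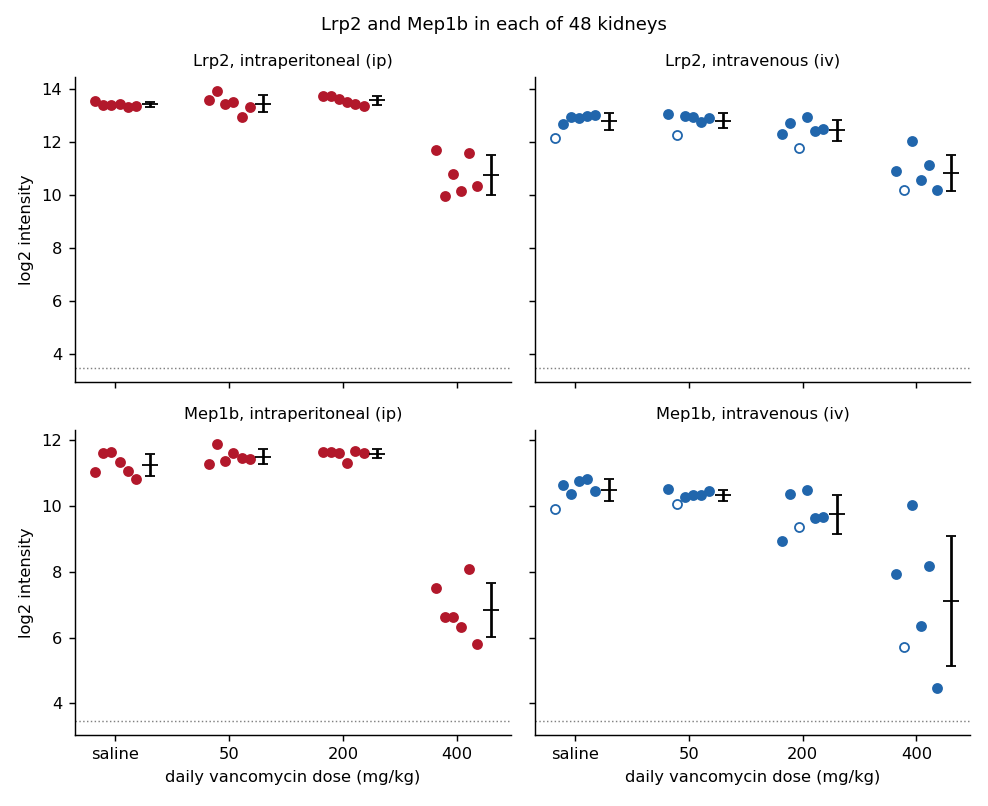
Log2 intensity of Lrp2 (top) and Mep1b (bottom) in each of the 48 kidneys by daily dose, for the ip route (left) and the iv route (right). Points are mice, black bars are the mean and SD of 6 mice, open points are the 4 arrays with a high median and the dotted line is the median of the table, 3.47. The 400 mg/kg groups stand below the rest, with mouse 45 of the iv 400 group the highest of its group for both genes.

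In whole kidney a loss of cells that hold a transcript and a loss of transcript per cell cannot be told apart. Other cells and states moved with both genes. The summed level of 11 leukocyte genes ran from 13.51 to 14.77 in ip 400 mice, against 9.31 to 10.24 in ip saline mice, and from 12.37 to 13.8 in iv 400 mice, against 9.32 to 9.59 in iv saline mice. That of 9 tubular injury genes ran from 15.01 to 15.56 in ip 400 mice, against 11.67 to 12.32 in ip saline mice, and from 14.62 to 15.58 in iv 400 mice, against 11.25 to 11.99 in iv saline mice. In each pair the groups did not overlap, and the part of these cells and states in the lower Lrp2 and Mep1b was not tested. The summed level of 10 glomerular and endothelial genes ran from 11.06 to 11.42 in ip 400 mice, against 11.21 to 11.53 in ip saline mice, and from 10.5 to 10.86 in iv 400 mice, against 10.58 to 11.13 in iv saline mice, and both pairs of groups overlapped. The sum adds linear levels, so Emcn, the highest of these genes, weighs most. Singly, 2 of the 10 passed as lower and 2 as higher at ip 400 (Nphs1 -1.04, Ptpro 0.75), and 2 and 1 at iv 400. Among all genes, 25.1% passed as lower and 36.3% as higher at ip 400, and 19% and 30.7% at iv 400. Of 4 tested genes of other tissues, 3 (Alb, Apoa2 and Cela1) passed as lower by both routes.

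At the lower doses neither gene passed the test. At 50 mg/kg ip, Lrp2 had levels of 12.92, 13.46 and 13.91 (lowest, median, highest), and Mep1b had levels of 11.27, 11.44 and 11.89, both overlapping the ip saline mice. At 200 mg/kg ip, Lrp2 was at 13.35, 13.56 and 13.73 and Mep1b at 11.31, 11.63 and 11.68, again overlapping the saline mice. The log2 fold change at ip 200 was 0.15 ± 0.24 for Lrp2 and 0.33 ± 0.45 for Mep1b (SE, limma adjusted p = 1 for both). Fitted with only the groups compared, the SEs were 0.07 and 0.13 (limma adjusted p = 0.74 and 0.66). Of all genes, 0.087% passed at each of these ip doses.

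By the iv route at 50 mg/kg, Lrp2 was at 12.26, 12.91 and 13.03 and Mep1b at 10.05, 10.33 and 10.5, both overlapping iv saline mice, and neither passed (limma adjusted p = 1 for both, against 0.539% of all genes that passed). A dose of 200 mg/kg iv gave Lrp2 levels of 11.76, 12.45 and 12.93 and Mep1b levels of 8.92, 9.65 and 10.48. For Mep1b, 4 of 6 iv 200 mice lay below the lowest iv saline mouse and all 6 below the iv saline mean, whereas for Lrp2 1 of 6 lay below the lowest and 5 of 6 below the mean. The log2 fold change was -0.74 for Mep1b (95% interval -1.639 to 0.155, limma adjusted p = 0.34) and -0.34 for Lrp2 (-0.818 to 0.146, adjusted p = 0.44), in a comparison in which 7.36% of all genes passed. Fitted with only the groups compared, the SE of Mep1b was 0.25 rather than 0.45 (limma adjusted p = 0.13). When each array was weighted by its own precision, the Mep1b value was -0.92 and passed (adjusted p = 0.019).

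The iv 200 mice were unlike one another in injury. Havcr1, which encodes the tubular injury marker KIM-1, ran from 9.95 in mouse 28 to 13.74 in mouse 27. Mouse 28 had the highest Lrp2 and Mep1b levels of its group, 12.93 and 10.48, and mouse 27 had the lowest Lrp2, 11.76. Mouse 26, with the second-lowest Havcr1 level at 10.72, had the second-highest Lrp2 and Mep1b levels, 12.72 and 10.37. In the iv 400 group mouse 45 likewise had the lowest Havcr1 level, 12.27, and the highest Lrp2 and Mep1b levels. Not all groups shared this order. In the ip 50 group mouse 68 had the highest Havcr1, Lrp2 and Mep1b levels, 11.65, 13.91 and 11.89, and in the ip 200 group mouse 88 had the lowest Havcr1 and Mep1b levels, 10.35 and 11.31. The array of mouse 27 is one of the 4 with a high median, and without those 4 arrays the log2 fold changes at iv 200 were -0.33 for Lrp2 and -0.78 for Mep1b. Without mouse 27 alone the value of Lrp2 was -0.2 (limma adjusted p = 0.71).

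The step between the 2 highest doses was large. The log2 fold change of ip 400 against ip 200 was -2.81 ± 0.24 for Lrp2 (limma adjusted p = 9.4e-14) and -4.75 ± 0.45 for Mep1b (adjusted p = 1.4e-12), where 60.6% of genes passed. For iv 400 against iv 200 it was -1.61 ± 0.24 for Lrp2 (adjusted p = 1.3e-06) and -2.63 ± 0.45 for Mep1b (adjusted p = 9.7e-06), where 31.2% of genes passed, and without the 4 arrays with a high median it was -1.62 and -2.42. The step between 50 and 200 mg/kg passed for neither gene by either route. It was 0.12 for Lrp2 and 0.08 for Mep1b by ip, where 0% of genes passed, and -0.37 for Lrp2 and -0.58 for Mep1b by iv, where 6.87% passed. A value that did not pass is not shown to be 0, and the 95% interval of ip 200 against ip saline ran from -0.567 to 1.227 for Mep1b and from -0.329 to 0.635 for Lrp2. These intervals rest on the spread pooled over all groups, the 400 mg/kg groups included.

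**Figure D2:**
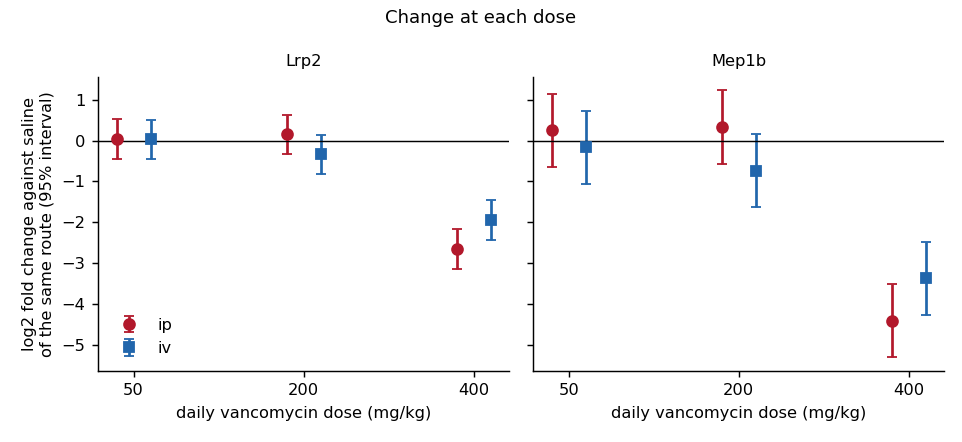
Log2 fold change of Lrp2 (left) and Mep1b (right) against saline of the same route at 50, 200 and 400 mg/kg. Circles are ip and squares are iv, bars are 95% intervals of the limma fit, and the intervals lie wholly below 0 at 400 mg/kg, for instance -5.317 to -3.523 for Mep1b at ip 400.

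Set in order of mean level, Lrp2 ran from ip 200 (13.55) through ip 50 (13.44), ip saline (13.4), iv 50 (12.8), iv saline (12.77), iv 200 (12.43) and iv 400 (10.82) to ip 400 (10.74). Of these neighbours, ip saline and iv 50 differed (limma adjusted p = 0.028), as did iv 200 and iv 400, and the other 5 pairs did not pass. The first of these pairs crosses route and set of arrays, and the share of all genes passing in it was not counted. Between routes, 57.7% of all genes passed in saline mice and 64.9% at 50 mg/kg. The median of all genes was higher in ip arrays there, by 0.41 and 0.47. Between iv 200 and iv 400, 31.2% passed. Mep1b ran from ip 200 (11.58) through ip 50 (11.5), ip saline (11.25), iv saline (10.48), iv 50 (10.32), iv 200 (9.74) and iv 400 (7.11) to ip 400 (6.83), and only the step between iv 200 and iv 400 passed. The last place is not settled, since leaving out 1 mouse moved the ip 400 minus iv 400 difference between -0.27 and 0.16 for Lrp2 and between -0.81 (without mouse 48) and 0.3 (without mouse 45) for Mep1b.

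Compared between routes at one dose, both genes were higher in ip than in iv kidneys at 50 and 200 mg/kg. In saline mice the ip minus iv difference was 0.63 for Lrp2 (limma adjusted p = 0.023) and 0.77 for Mep1b (adjusted p = 0.14). At 50 mg/kg it was 0.64 for Lrp2 (adjusted p = 0.019) and 1.18 for Mep1b (adjusted p = 0.02), and at 200 mg/kg 1.12 for Lrp2 (adjusted p = 0.00013) and 1.84 for Mep1b (adjusted p = 0.00056). At 400 mg/kg it was -0.08 for Lrp2 (95% interval -0.56 to 0.404) and -0.28 for Mep1b (-1.177 to 0.617), neither of which passed. Yet the median of all genes was higher by 0.41 in ip saline than in iv saline arrays, and 57.7% of genes passed there, 64.9% at 50, 59.4% at 200 and 61.3% at 400 mg/kg. After quantile normalization the saline difference was 0.45 for Lrp2 and the differences at 50 mg/kg were 0.44 for Lrp2 and 0.71 for Mep1b, and none of these passed, while that of Mep1b in saline mice was 0.33. Without the 4 arrays with a high median the saline difference of Lrp2 was 0.51 and did not pass (limma adjusted p = 0.061), nor did it without mouse 1 alone, and the Lrp2 difference at 50 mg/kg did not pass without mouse 9 (0.53) or mouse 68 (0.54). Route and set of arrays cannot be told apart.

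Whether the effect of a dose differed by route was tested as the difference of the 2 fold changes. At 50 mg/kg the ip effect minus the iv effect was 0.01 for Lrp2 and 0.41 for Mep1b (limma adjusted p = 1 for both), where 0.191% of genes passed. At 200 mg/kg it was 0.49 for Lrp2 (adjusted p = 0.59) and 1.07 for Mep1b (adjusted p = 0.52), where 0.974% passed. At 400 mg/kg it was -0.71 ± 0.34 for Lrp2 (SE, adjusted p = 0.23) and -1.05 ± 0.63 for Mep1b (adjusted p = 0.36), where 4.31% passed. Without mouse 45 these values were -0.47 and -0.46. No difference between routes in the response of either gene was thus called, except that of Mep1b at 200 mg/kg with array weights (1.31, limma adjusted p = 0.021).

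Mep1b was set against Lrp2 within each mouse, as the difference of the 2 log2 levels. At ip 400 Mep1b changed by 1.76 more than Lrp2 in the downward direction, a difference of -1.76 (exact permutation test, two-sided p = 0.0022, the smallest these group sizes allow, adjusted p = 0.013 over 6 comparisons), and all 6 mice lay below the lowest saline mouse. At iv 400 the difference was -1.43 (exact p = 0.019, adjusted p = 0.058), with 5 of 6 mice below the lowest saline mouse. At iv 200 it was -0.41 (exact p = 0.039, adjusted p = 0.078). It was -0.19 at iv 50, 0.18 at ip 200 and 0.21 at ip 50, with adjusted p between 0.2 and 0.27 (exact permutation tests). Single mice decided 2 of these calls (exact permutation tests). Without mouse 45 the difference at iv 400 was -1.77 and passed (adjusted p = 0.0065), and without mouse 26 that at iv 200 was -0.48 and passed (adjusted p = 0.048). Without the 4 arrays with a high median it was -1.26 at iv 400.

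Within the iv 400 group the 2 genes followed each other from mouse to mouse. In the order of mice 43 to 48, Lrp2 was at 10.9, 10.19, 12.01, 10.54, 11.11 and 10.19, and Mep1b at 7.93, 5.7, 10.02, 6.36, 8.17 and 4.48. Mouse 45 was the highest for both and mice 44 and 48 the lowest for both. Pearson's r over these 6 mice was 0.96 (exact permutation p = 0.0028, adjusted p = 0.022 over 8 groups) and Spearman's rho was 0.94 (exact p = 0.017, adjusted p = 0.067), and r was 0.98 without mice 45 and 44, the 2 farthest from the median of Lrp2. Without mouse 44, whose array median was high, r was again 0.96 over 5 mice, too few for a group to pass on its own after adjustment over 8 groups. The iv 200 mice gave similar values, with an r of 0.77 (exact permutation adjusted p = 0.13), a rho of 0.94 (adjusted p = 0.067) and an r of 0.98 without mice 27 and 28. In the other groups r was 0.06 in ip saline, 0.56 at ip 50, 0.19 at ip 200, 0.84 at ip 400, 0.76 in iv saline and 0.84 at iv 50, and none passed. The r of ip 400 mice rested on mice 103 and 107, and was 0.05 without them. That of iv 50 rested on mice 9 and 12 (0.22 without them) and that of iv saline on mice 1 and 2 (-0.22 without them).

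**Figure D3:**
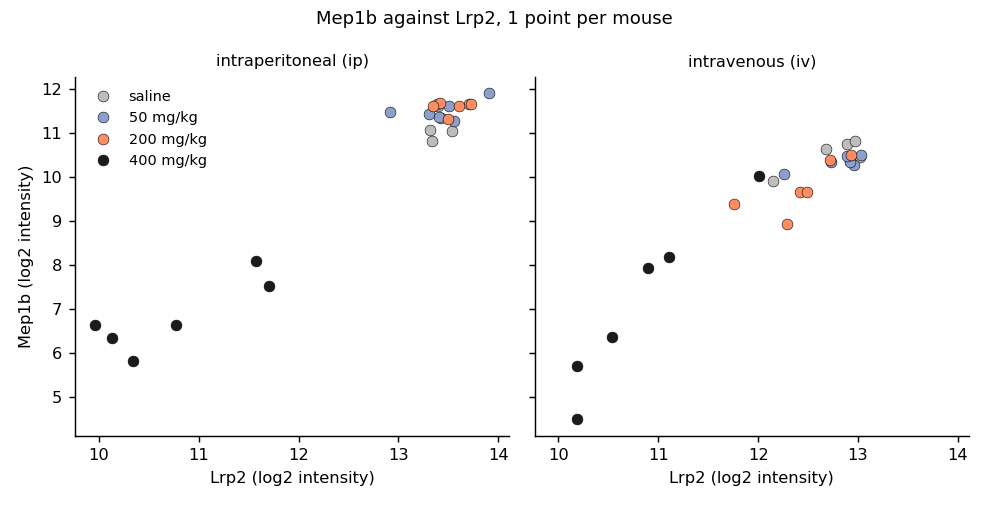
Mep1b against Lrp2, both as log2 intensity, with 1 point per mouse, for the ip route (left) and the iv route (right), coloured by dose. The 400 mg/kg mice (black) spread along a line in the iv panel, where r was 0.96, and mouse 45 lies among the iv mice given less drug.

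The gene whose level over the 48 arrays was most like that of Lrp2 was Cubn, which encodes cubilin, the partner receptor of megalin. Their Pearson r was 0.986 over 48 arrays, which share large differences between groups. The r of their deviations from the group means was 0.93, and by both of these measures and by Spearman's rho (0.976) Cubn ranked first among 5747 genes. Cubn had levels of 9.21, 9.81 and 10.59 (lowest, median, highest) in ip 400 mice, against 12.17, 12.23 and 12.55 in ip saline mice, and of 9.66, 10.06 and 11.14 in iv 400 mice, against 11.56, 12.05 and 12.17 in iv saline mice. Neither pair of groups overlapped, and the share of all genes for which this holds was not counted. The correlations are descriptions and carry no test.

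The promoters of this pair, the 250 bases before each gene's start as RefSeq gives them on build GRCm38.p6 and read 5′ to 3′ on the minus strand for both, are printed because the 2 genes moved together while their promoters differ in composition. Lrp2 lies at chr2:69586030-69586279 and Cubn at chr2:13491877-13492126. Capitals mark the GC box GGGCGG.
Lrp2: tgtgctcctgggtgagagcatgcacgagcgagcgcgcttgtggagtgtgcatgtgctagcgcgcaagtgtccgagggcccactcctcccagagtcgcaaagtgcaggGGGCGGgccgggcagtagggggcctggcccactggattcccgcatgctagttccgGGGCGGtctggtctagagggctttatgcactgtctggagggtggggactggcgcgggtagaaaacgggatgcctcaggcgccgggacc
Cubn: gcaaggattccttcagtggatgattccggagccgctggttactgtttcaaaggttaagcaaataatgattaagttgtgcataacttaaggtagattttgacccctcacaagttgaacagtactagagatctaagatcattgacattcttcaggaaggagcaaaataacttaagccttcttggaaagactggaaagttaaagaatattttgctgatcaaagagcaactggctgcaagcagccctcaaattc

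The Lrp2 stretch is 66.4% G and C and that of Cubn 39.6%, against a median of 52% over 27025 mouse promoters of the same length. Lrp2 holds 2 GC boxes, which begin 143 and 88 bases before the start, and Cubn holds none. On both strands 3 motifs were searched, with no match overlapping another: the GC box GGGCGG, found in 32.9% of all promoters, the CCAAT box CCAAT (34.5%) and the TATA box TATAAA (13%). The CCAAT and TATA boxes were found in neither promoter as these letters. A match is a description of letters and not a measured site.

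The next genes most like Lrp2 over the 48 arrays were Abat, which encodes GABA transaminase, the mannose transporter gene Slc5a9, the sulfate donor synthase gene Papss2, the flavin monooxygenase gene Fmo2, Susd2, the mitochondrial acetyl-CoA synthetase gene Acss1 and the amino acid transporter gene Slc6a20b, with r between 0.976 and 0.984. Likeness to Lrp2 over arrays that include the 400 mg/kg mice picks genes that are low there, so their changes are given as a description, with log2 fold changes between -3.5 for Susd2 and -1.87 for Papss2 at ip 400 and between -2.92 for Susd2 and -1.48 for Fmo2 at iv 400. For Mep1b the 8 most alike were Aadat, a transaminase gene of lysine and kynurenine breakdown (r = 0.981, and 0.91 for deviations from group means), the organic anion transporter family gene Slc22a19 (0.975), Echdc3 (0.969), Slc22a29 (0.969), Lrp2 (0.967), Acsm1 (0.965), Susd2 (0.965) and the glucosyltransferase family gene Ugt3a2 (0.964). Mep1b stood at number 19 for Lrp2, and the r of deviations between the 2 genes was 0.77. By that r of deviations Mep1b stood only at number 58 for Lrp2, and Lrp2 at number 24 for Mep1b. Susd2 was the 1 gene in both sets of 8. The order depends on the measure, since 3 of the 8 genes for each member were also among the first 8 by Spearman's rho.

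Of 16 tested genes of megalin endocytosis, Lrp2 included, 8 passed as lower and 4 as higher at ip 400, with a median log2 fold change of -0.38 (-0.6 after quantile normalization, with 10 lower), and 6 passed as lower and 4 as higher at iv 400, with a median of -0.2. Without Lrp2, 7 of 15 passed as lower at ip 400 (median -0.33) and 5 of 15 at iv 400 (median -0.13). Of all genes, 25.1% passed as lower and 36.3% as higher at ip 400, and 19% and 30.7% at iv 400, and the median of all genes was 0.11 at ip 400 (-0.01 after quantile normalization) and 0.09 at iv 400. Genes of the receptor complex were lower. Cubn had a log2 fold change of -2.41 at ip 400 (limma adjusted p = 6e-13) and -1.7 at iv 400 (1.4e-08). Amn, which encodes amnionless, had values of -1.38 and -0.83 in the same order of routes. Vldlr, which encodes a separate receptor of the LDL receptor family, had values of -0.94 and -0.79. All 4 of these values passed.

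Around the receptors, the chaperone gene Lrpap1, whose product keeps megalin free of ligand while it is made, was lower by 1.79 at ip 400 and by 1.15 at iv 400 on the log2 scale, and Dab2, an adaptor that binds the megalin tail, by 1.12 and 0.78. Other genes of the list were higher. Ap2b1, a subunit of the AP-2 adaptor, had a log2 fold change of 0.87 at ip 400 and 1.48 at iv 400, Gipc1, a further adaptor of the megalin tail, 0.91 and 0.73, the early endosome adaptor gene Appl1 0.81 and 0.8, and the clathrin light chain gene Clta 0.26 and 0.23, and all passed as higher, whereas with arrays centred on their median 3 genes of the list passed as higher by each route. Dnm2, which encodes the dynamin that cuts vesicles free, had values of 0.1 and 0.06 and did not pass.

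Of 10 tested brush border hydrolase genes, Mep1b included, 8 passed as lower and 0 as higher at ip 400 (median log2 fold change -1.34), and 6 passed as lower and 1 as higher at iv 400 (median -0.79). Without Mep1b, 7 of 9 passed as lower at ip 400 (median -0.97) and 5 of 9 at iv 400 (median -0.62). Among all genes tested the shares were 25.1% lower and 36.3% higher at ip 400, and 19% and 30.7% at iv 400. Among the 9 others, the aminopeptidase N gene Anpep had a log2 fold change of -1.97 at ip 400 and -1.03 at iv 400, the aminopeptidase P gene Xpnpep2 -1.92 and -1.81, the alkaline phosphatase gene Alpl -1.81 and -1.24, the angiotensin-converting enzyme gene Ace -1.7 and -0.96, and Dpp4 -0.5 and -0.44, all of which passed. The neprilysin gene Mme passed at ip 400 (-0.97, limma adjusted p = 0.0058) and not at iv 400 (-0.62, adjusted p = 0.088). Vnn1, which encodes a pantetheinase, was higher at iv 400 (1.06, adjusted p = 0.0098) and had a value of 0.23 at ip 400 (adjusted p = 0.58). The difference between routes did not pass for Mme (-0.35, adjusted p = 0.72) or for Vnn1 (-0.83, adjusted p = 0.35), and it passed for Ace (-0.74, limma adjusted p = 0.037). Mep1b had the most negative value of the 10 genes by both routes.

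**Figure D4:**
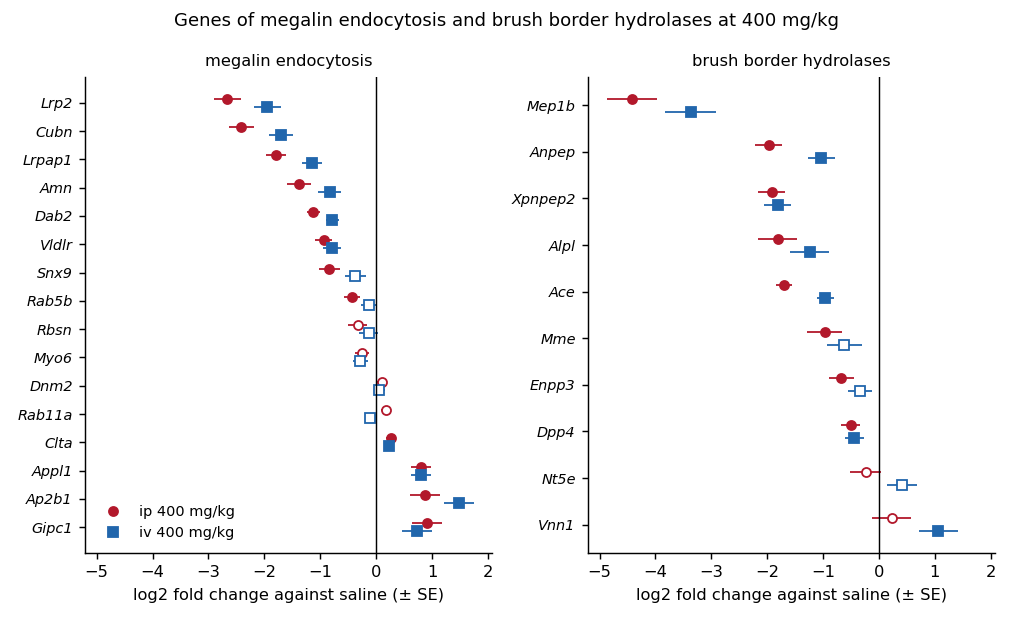
Log2 fold change against saline of the same route, with its SE, of the 16 tested genes of megalin endocytosis (left) and the 10 tested brush border hydrolase genes (right). Circles are ip 400 and squares iv 400, filled where the adjusted p was under 0.05. Lrp2 and Mep1b have the most negative value of their panels at ip 400, and Ap2b1, Gipc1, Appl1 and Clta lie above 0.

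All 8 tested genes of a list of apical transporters of the proximal tubule passed as lower at ip 400 (median log2 fold change -2.51) and at iv 400 (median -1.57). The shares of all genes passing as lower were 25.1% and 19%. Slc34a1, which encodes the main phosphate transporter of the brush border, had values of -2.85 and -2 by ip and iv. At iv 200, where Lrp2 and Mep1b did not pass, 2 of the 8 did, the urate transporter gene Slc22a12 (-0.75, limma adjusted p = 0.0052) and the dicarboxylate transporter gene Slc13a3 (-0.78, adjusted p = 0.038), which was on the list although its product is known from the basolateral side. That count was 1 with arrays centred on their median and 1 without the 4 arrays with a high median. Of all genes, 1.29% passed as lower at iv 200. Of the 16 endocytosis and 10 hydrolase genes 0 passed there (limma), but 2 hydrolase genes passed as lower after quantile normalization, as many as of the transporter genes. Of 9 brush border scaffold genes, 5 passed as lower and 4 as higher at ip 400, and 4 and 4 at iv 400. Beside these counts, 36.3% of all genes passed as higher at ip 400 and 30.7% at iv 400. The tight junction gene Cgn was higher, by 1.62 and 1.17, and Pdzk1ip1, a membrane protein gene of the proximal tubule, had values of -1.26 and -0.77.

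Of 9 tested transcription factor genes, 5 passed as lower and 2 as higher at ip 400, and 2 as lower and 1 as higher at iv 400. Against 25.1% and 36.3% of all genes at ip 400 and 19% and 30.7% at iv 400, the list at iv 400 lay near or under the share of all genes. Hnf4a, a regulator of proximal tubule identity, had log2 fold changes of -1.52 and -1.03, Ppargc1a, a regulator of mitochondrial genes, -0.66 and -0.84, and Sox9, a factor of tubular repair, 1.27 and 1.11, all of which passed. Of 13 genes of other tubule segments, 11 passed as lower at ip 400 and 12 at iv 400. The median log2 fold change of this list was -1.23 at ip 400 and -1.24 at iv 400. Its 2 most negative genes were Pvalb, a gene of the distal tubule, and Egf, the epidermal growth factor gene. Pvalb had values of -5.83 and -4.17, and Egf -4.37 and -3.14. Umod, at -0.29 and -0.28, passed by both routes. Aqp2, at 0.21 and -0.46, passed by neither route, and Scnn1b, at -0.08 and -0.41, passed only at iv 400.

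All 9 tested tubular injury genes passed as higher at ip 400 (median log2 fold change 4.08) and at iv 400 (median 3.99). The shares of all genes passing as higher were 36.3% and 30.7%. The filter partly fixed this count, since 9 of 10 named injury genes were tested and some cleared it chiefly through groups in which they are high. Krt20 had saline means of 2.77 (ip) and 2.96 (iv) and Cd44 of 2.95 and 2.8, under the filter level of 3.47. Havcr1 had a value of 3.26 at ip 400 and 3.55 at iv 400. At iv 200, 7 of the 9 passed as higher (median 1.65), against 6.07% of all genes, with 2.81 for the fibrinogen gene Fga and 2.48 for Havcr1, in the comparison in which neither Lrp2 nor Mep1b was called. At ip 200, 0 of 9 passed (limma). Of 11 leukocyte genes, 10 passed as higher at ip 400 and 10 at iv 400, and 8 at iv 200. The same limit holds here, since 11 of 14 named leukocyte genes were tested. Itgam (saline means 2.45 by ip and 2.43 by iv) and Ncf4 (2.32 and 2.52) lay under the filter level in saline mice. The T cell gene Cd8a was lower at ip 400 (-0.39, limma adjusted p = 0.0014) and did not pass at iv 400 (0.01). The list holds chiefly genes of macrophages and monocytes, and markers of B cells and neutrophils were not analysed here.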

How the data were processed

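Per the labels, RNA of whole kidney was labelled with biotin and read on single-colour arrays. The deposited table holds linear intensity values of 45101 probe sets, which the authors made with GCRMA, as the submitters' processing notes list. Those notes give neither its version nor a genome build, and GRCm38.p6 above is the build of the promoter sequences. Values ran from 1.78 to 63594 and log2 was taken without an offset. A value row took the identifier at an offset of 64 rows in rows 751 to 3250, of -47 in rows 5001 to 11750 and of -16168 in rows 34251 to 36000. A gene was tested where log2 exceeded 3.47 in at least 6 arrays, with its probe set of the highest mean. All groups were fitted with limma 3.58.1 (R 4.3.3, eBayes with trend, two-sided, Benjamini-Hochberg over 5748 genes per comparison, threshold 0.05). Permutation tests went through every split or pairing in Python 3.11.15, with ranks from SciPy 1.17.1. The fit was tested on simulated data in which each gene had the same spread in all groups. That test does not cover spreads that differ between groups, as that of Mep1b did. Precision is limited by the 6 arrays per group. The alternatives comprised other scalings, filters, sample sets, array weights and leaving out each mouse. Beside the members, genes were named as up to 6 per list with the largest change at ip 400, a few set partners, and the 8 most alike. Ap2b1, Gipc1, Appl1, Clta, Dnm2, Dpp4, Vnn1, Umod, Aqp2, Scnn1b and Cd8a were named after their values were seen. The members, lists and tests were chosen with earlier results of these data known.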

Additional observations from a re-analysis of the deposited data

Results flagged for a closer look

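Mep1b in mouse 88 of the ip 200 group lay at 11.31, the lowest of its group, apart from the other 5 mice, which lay close together. The gap to the nearest mouse was 0.784 of the range of the group, past Dixon's limit for 6 samples, which chance passes in about 1 group in 20. The level is still above the ip saline median.

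At 200 mg/kg the change of Mep1b by ip minus that by iv was 1.07. All 6 iv 200 mice lay below the iv saline mean and all 6 ip 200 mice lay above the ip saline mean. The difference did not pass the test (limma adjusted p = 0.52).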

How the results depend on the processing

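At 400 mg/kg, both genes kept their direction and their call under 11 alternatives that keep the naming. These comprise scaling, offset, filters, array weights, fewer groups in the fit and leaving out the 4 arrays with a high median. Log2 fold changes ran from -2.8 to -2.64 for Lrp2 and from -4.61 to -4.22 for Mep1b at ip 400, and from -2.03 to -1.88 and from -3.43 to -3.12 at iv 400. Leaving out 1 mouse at a time they ran from -2.85 to -2.5 and from -4.67 to -4.22 at ip 400, and from -2.19 to -1.82 and from -3.96 to -2.85 at iv 400. Leaving out the 4 arrays was chosen after seeing the data.

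With identifiers as printed, the results did not hold. Lrp2 was then at 1.65 (ip 400), 0.67 (iv 400), 1.26 (ip 400 against ip 200), 0.65 (iv 400 against iv 200) and 1.19 (ip 400 against iv 400), and Mep1b at -0.08, 0.13, 0.06 and 0.11 in the first 4 of these. The ip minus iv difference was then 0.22 (saline), 0.45 (50) and 0.58 (200 mg/kg) for Lrp2, all without a call, and 0.87 for Mep1b in saline mice, with one (limma adjusted p = 0.012).

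With the naming kept, the ip minus iv difference moved with scaling. For Lrp2 in saline mice it was 0.45 with quantile normalization, 0.47 with arrays centred on their median and 0.51 without the 4 arrays, and for 50 mg/kg it was 0.44 and 0.52 under the 2 scalings. For Mep1b at 50 mg/kg these gave 0.71 and 1.05. None of these passed. For Mep1b in saline mice it was 0.33 with quantile normalization and 0.6 with arrays centred, while fitting only the groups compared gave 0.77 with a call (limma adjusted p = 0.0018). Leaving out 1 mouse, Lrp2 ran from 0.51 to 0.68 in saline mice, with the call lost without mouse 1, and from 0.53 to 0.74 at 50 mg/kg, with the call lost without mouse 9 or mouse 68. Array weights gave calls for Mep1b at iv 200 (-0.92) and for its difference between routes at 200 mg/kg (1.31, limma adjusted p = 0.021). The Mep1b minus Lrp2 difference at iv 400 was -1.52 with quantile normalization and passed. Leaving out 1 mouse it ran from -1.77 to -1.03, and at iv 200 from -0.48 to -0.27, with a call without mouse 26. The cause of these changes was not tested. At iv 400, r without mouse 44 was 0.96 without a call, which follows from the design, since 5 mice cannot pass on their own after adjustment over 8 groups.

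The number of genes called at iv 200, 423, ran from 76 with only the groups compared to 1398 with array weights, and was 250 without the 4 arrays and 271 without mouse 25. At iv 50 (31) it ran from 14 to 196, in ip saline against iv saline (3316) it was 1344 after quantile normalization, and at ip 50 and ip 200 (5 each) it ran from 0 to 13 and from 3 to 18. Leaving out 1 mouse, the difference between routes of the effect of 400 mg/kg ran from -0.9 to -0.47 for Lrp2 and from -1.57 to -0.46 for Mep1b. The differences between routes gave 24 to 714 genes at 200 and 43 to 1331 at 400 mg/kg. Of the genes called against saline of the same route, 38.2% were lower at iv 400 and 40.8% at ip 400, and 47.2% and 50.2% after quantile normalization. After it 10 genes of megalin endocytosis passed as lower at ip 400 and 8 at iv 400. Another probe set of Lrp2 could not be tried, since none lies in the named stretches. No paired analysis was possible because no mouse number is shared between groups.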
